A study of Homo sapiens and Mus musculus with 99 samples.

Results

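NCI-H1437 cells treated for 4 h with extracts of *Alternaria alternata* that lack one of a pair of pore-forming proteins were compared with mock-treated cells and with each other. The members are 6 of the 99 libraries of the series, chosen by their labels: 2 with the extract labelled aegs KO ALT, 2 with the extract labelled aegl KO ALT and 2 with DPBS, the buffer given as mock. In 2 more libraries of the same experiment the cells received the extract labelled WT ALT, and these show what the complete extract does. ALT is the extract of *A. alternata*, an airborne mould and a common cause of allergic airway disease. NCI-H1437 is an epithelial line from a non-small cell lung cancer, and all groups were grown in RPMI medium with 10% serum. The series labels call its samples biological replicates, but nothing ties the 2 libraries of a group to separate cultures or extracts, so p-values measure the spread between these libraries. The sources used here give neither doses nor whether the extracts were matched for protein.

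Pore-forming proteins are secreted as soluble subunits that assemble on a membrane and open a channel through it. Ions then cross the membrane, calcium enters, and nucleated cells answer with membrane repair, stress kinases and the fast transcription of immediate early genes, cytokines and growth factor receptor ligands. In this series Aeg-S and Aeg-L are the pore-forming subunits of the fungus, and the KO extracts are named for the aegs and aegl genes. The knockout is in the fungus, so human gene counts cannot check it. The comparison asks what an extract still does to the cells when it cannot deliver a complete pore.

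The libraries held 34.6 to 43.1 M counted fragments under the KO extracts, 33.6 and 34.2 M under the WT extract and 39.4 and 47.4 M under DPBS. The cells expressed all 10 epithelial markers examined, with a summed level of 5252 to 5905 CPM (counts scaled to library size) over the 8 libraries. Mesenchymal markers summed to 60.0 to 119 CPM, nearly all from COL1A1, with COL3A1, DCN, LUM and FAP at 0. Leukocyte markers summed to 28.8 to 34.4 CPM, nearly all from CD14, with FCGR3A and MS4A1 at 0, LYZ at 0 to 0.0595 CPM and PTPRC at 0 to 0.119 CPM. Endothelial markers summed to 24.3 to 38.2 CPM. One DPBS library stood apart: mitochondrial transcripts took 2.83% of the counts in DPBS 2, against 1.58% in DPBS 1, 1.21 to 1.52% under the KO extracts and 2.01 and 2.02% under the WT extract. In bulk RNA, fewer cells of a type and less RNA per cell cannot be told apart.

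Few genes were called between either KO extract and DPBS, and their changes were small. Of 16711 genes tested, edgeR's quasi-likelihood test called 181 between aegs KO and DPBS at an adjusted p under 0.05 (1.08% of genes), 23 higher (0.138%) and 158 lower (0.945%). Between aegl KO and DPBS it called 128 (0.766%), 28 higher (0.168%) and 100 lower (0.598%). The median log2 changes were 0.37 for the higher and −0.41 for the lower genes under aegs KO, and 0.50 and −0.50 under aegl KO. A change of at least 2-fold was reached by 2 higher and 10 lower genes under aegs KO, and by 1 and 14 under aegl KO. With the 4 KO libraries joined against DPBS, 367 genes were called (2.2%), 75 higher (0.449%) and the rest lower (1.75%). The WT extract, set against the same 2 DPBS libraries, gave 5483 calls (32.8%), 2632 higher (15.8%) and 2851 lower (17.1%), of which 490 and 326 were at least 2-fold. Between the KO extracts together and the WT extract, 6050 genes were called (36.2%), 3103 higher (18.6%) and 2947 lower (17.6%) with the KO extracts. The median log2 change over all genes lay between −0.01 and 0, to 2 decimals, in all these comparisons with DPBS.

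These small sets of calls depended on single libraries. The aegs KO count of 181 became 6 without aegs KO 2, 26 without aegs KO 1, 40 without DPBS 2, 58 without aegl KO 1 or aegl KO 2, 92 without DPBS 1, and 636 without WT 1 or WT 2. The aegl KO count of 128 became 0 without aegl KO 1, 14 without aegl KO 2, 18 without DPBS 2, 674 without WT 1 and 668 without WT 2. The joint count of 367 became 61 without DPBS 2, 93 without aegl KO 1, 125 without aegl KO 2, 143 without aegs KO 1, 152 without aegs KO 2, 172 without DPBS 1, and 1097 without WT 1 or WT 2. Of the 25 genes named by rule for aegs KO, ANGPTL4 and NPIPB5 passed without each of the 8 libraries in turn, and of the 25 for aegl KO 0 did. Of 43 genes whose joint call is given below, 16 passed without each of the 8 libraries in turn, namely ANGPTL4, CCNG2, CENPF, DST, FAT1, GRB7, HSPA8, KLHL24, LFNG, MKI67, MUC5AC, PRKDC, SLC38A2, SYNE2, TNFRSF12A and UBR4. Another 9, AEN, CYP1A1, FOSL1, ID1, PHLDA2, RPL38, SRXN1, TNFSF10 and TOMM7, failed only without DPBS 2. The results below therefore rest on the joint comparison of 4 KO libraries with 2 DPBS libraries, with each extract's values beside it.

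Genes of the fast response to the complete extract lay near DPBS. The immediate early transcription factor FOS had 7.196 and 7.09 CPM with aegs KO and 6.56 and 7.499 CPM with aegl KO, whereas it had 1471 and 992 CPM with the WT extract, against 7.65 and 9.17 CPM with DPBS. Its change was −0.23 ± 0.18 under aegs KO (log2 ± standard error, adjusted p = 0.689), −0.26 ± 0.18 under aegl KO (adjusted p = 0.598) and 7.2 ± 0.16 under the WT extract (adjusted p = 9.27e-15). The KO and DPBS libraries lay within 3 CPM of each other and the WT libraries far above them. NFKBIA, the inhibitor that NF-kB induces to switch itself off, had 44.3 and 41.5 CPM with aegs KO and 42.2 and 39.8 CPM with aegl KO, 959 and 741 CPM with the WT extract and 39.1 CPM in both DPBS libraries. Its changes of 0.13 ± 0.09 and 0.07 ± 0.09 did not pass (adjusted p = 0.645 and 0.829). TNFAIP3, which ends NF-kB signalling, had 1.28 to 2.68 CPM with the KO extracts, 239 and 175 CPM with the WT extract, and 1.84 and 2.27 CPM with DPBS.

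The level of CXCL8, a neutrophil attractant, was less even across the KO libraries. It had 7.39 and 5.16 CPM with aegs KO, 10.8 and 6.05 CPM with aegl KO, 2023 and 1582 CPM with the WT extract, and 4.69 and 4.44 CPM with DPBS. All 4 KO libraries lay above both DPBS libraries, but the changes of 0.45 ± 0.23 under aegs KO (adjusted p = 0.483), 0.90 ± 0.22 under aegl KO (adjusted p = 0.0626) and 0.68 ± 0.20 jointly (adjusted p = 0.0948) did not pass. The cytokine IL6 had 0 counts in both aegs KO libraries, 6 and 2 counts with aegl KO, 4321 and 2885 counts with the WT extract and 0 with DPBS. Set against a floor of 3 counts over the DPBS group, its level with the WT extract was at least 3186-fold higher.

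**Figure D1:**
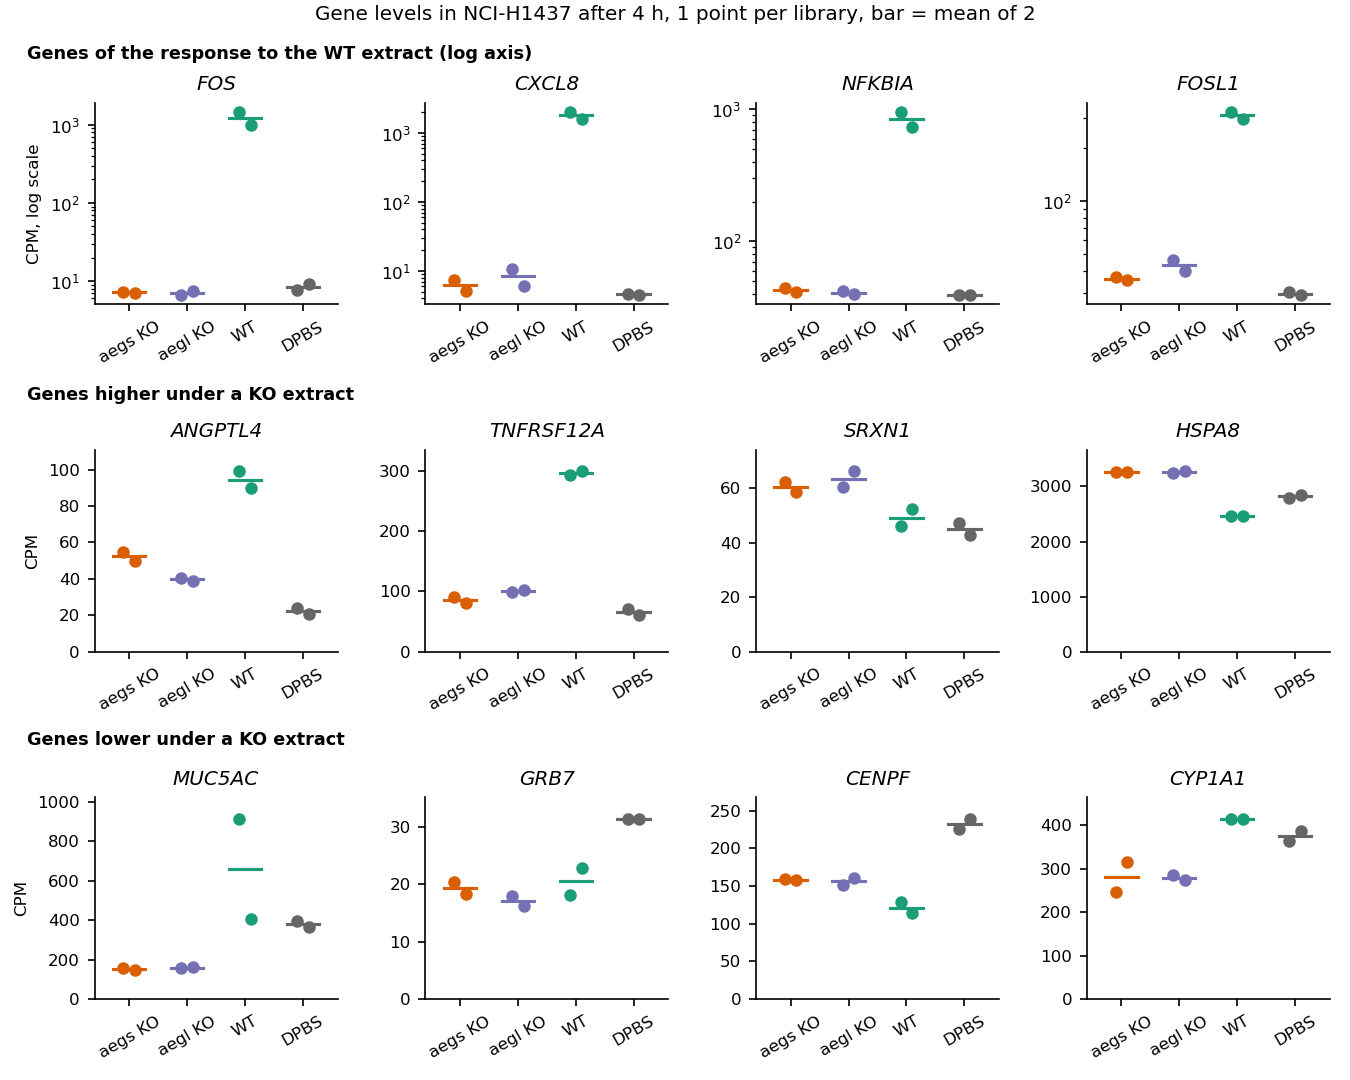
Levels of 12 genes in NCI-H1437 cells in CPM, with 1 point per library and a bar at the mean of 2 libraries, for aegs KO, aegl KO, WT extract and DPBS; the axes of FOS, CXCL8, NFKBIA and FOSL1 are logarithmic. The KO libraries sit beside DPBS for FOS (6.56 to 7.499 CPM against 7.65 and 9.17 CPM), between WT and DPBS for ANGPTL4 and TNFRSF12A, and outside both for HSPA8 and SRXN1.

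Described list by list, the routes that the WT extract moved strongly had much smaller medians with the KO extracts. These ran from −0.08 to 0.13 under aegs KO and from 0.09 to 0.30 under aegl KO. Single genes, over all tested, had quartiles of −0.15 and 0.11 under aegs KO and −0.16 and 0.11 under aegl KO. The 19 tested immediate early genes had a median log2 change of −0.03 under aegs KO and 0.12 under aegl KO, with 1 gene passing under aegl KO (FOSL1), against 3.63 with 18 genes passing under the WT extract. The 13 NF-kB feedback genes had medians of 0.0016 and 0.09 with 0 genes passing, against 2.47 and 13 genes under the WT extract. For the 9 chemokines the medians were 0.13 and 0.30 with 0 passing, against 5.93 and 7. The 11 epithelial cytokines had −0.08 and 0.18 with 0 passing, against 2.77 and 9, and the 11 targets of calcium, CREB and NFAT had −0.07 and 0.20 with 0 passing, against 2.66 and 10. Among 13 ERK feedback genes the medians were 0.02 and 0.18 with PHLDA1 passing under aegl KO, against 0.70 and 7. Among 7 EGF receptor ligands they were 0.08 and 0.28 with EREG passing under aegl KO, against 1.62 with 4 higher and 1 lower. In each of these 7 lists the aegl KO median was above the aegs KO median, and both were set against the same DPBS libraries. With the KO extracts together and without WT 1 or WT 2, 3 immediate early genes were higher and 1 lower. In the same fits 2 chemokines, 2 ERK feedback genes and 2 EGF receptor ligands were higher, and 3 targets of calcium, CREB and NFAT were lower. Between the KO extracts directly, 0 genes of these lists passed (adjusted p under 0.05, edgeR).

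Genes that the complete stimulus raises in other NCI-H1437 experiments of the series were read as well. Of 200 genes that rose most clearly under ALT in an experiment with 3 libraries a group, 4 were higher and 0 lower under aegs KO (median 0.02), and 10 higher and 1 lower under aegl KO (median 0.10), whereas 187 were higher under the WT extract (median 1.87). Of 200 genes that rose under the proteins Aeg-S and Aeg-L together, 2 were higher and 6 lower under aegs KO (median −0.00063), 9 higher and 2 lower under aegl KO (median 0.06), and 197 higher under the WT extract (median 1.99). Over all genes 0.138% were higher and 0.945% lower under aegs KO, and 0.168% and 0.598% under aegl KO. In both lists the share called higher was above that of all genes under each KO extract. In the Aeg-S/L list so was the share called lower. Changes above 0 were found for 107 and 136 genes of the ALT list under aegs KO and aegl KO, and for 99 and 120 of the Aeg-S/L list. The sign of the aegs KO medians was not fixed. That of the ALT list was −0.01 without aegs KO 1, and that of the Aeg-S/L list ran from −0.04 to 0.02 without 1 library. Against the WT extract, the KO extracts together were lower for 191 genes of the first list (median −1.76) and 198 of the second (median −1.86), and higher for 0 of either.

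**Figure D2:**
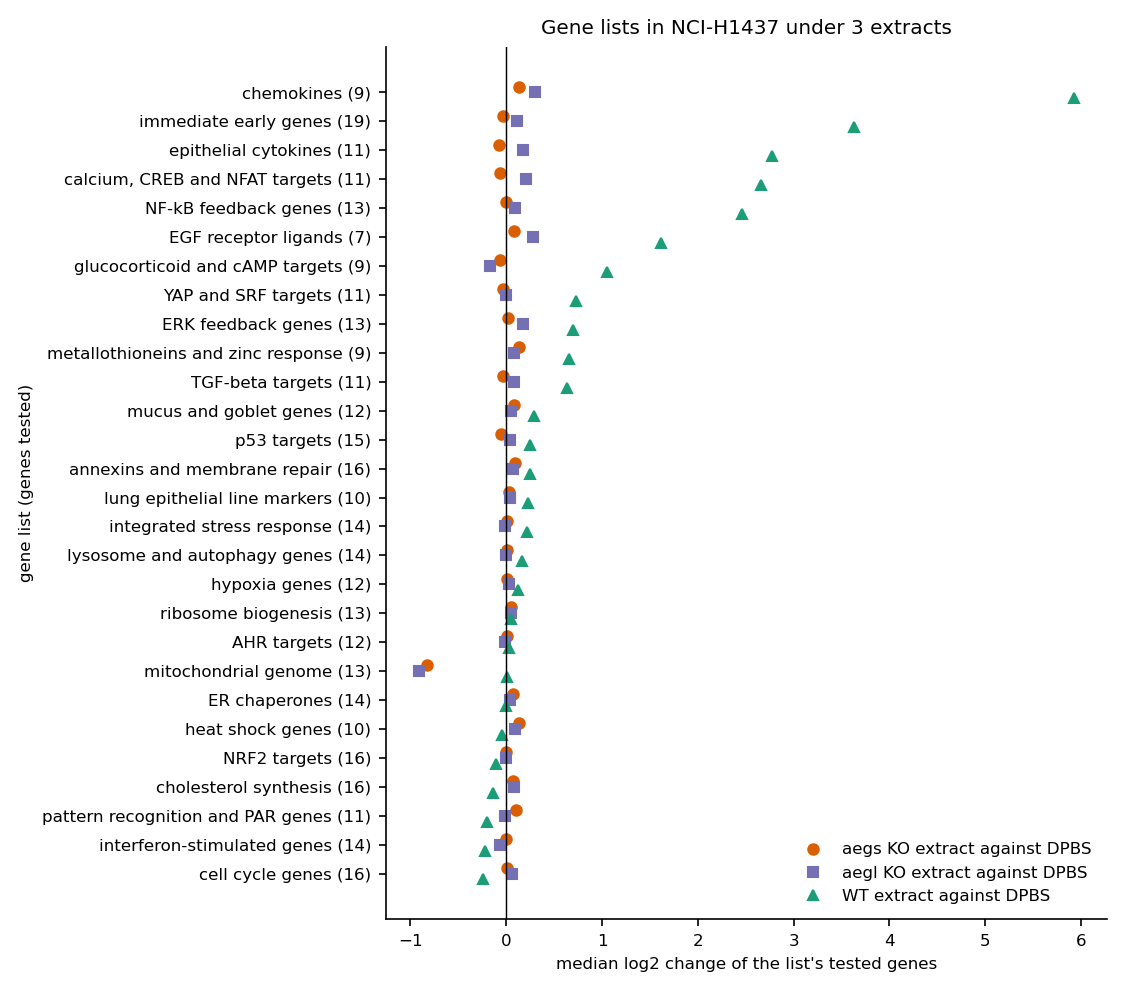
Median log2 change of the tested genes of 28 gene lists in NCI-H1437 cells, with circles for aegs KO, squares for aegl KO and triangles for the WT extract, each against the same DPBS libraries; the number of tested genes is in brackets and lists are sorted by the WT value. Triangles run from 5.93 for chemokines to below 0 for cell cycle genes, while circles and squares stay between −0.17 and 0.30 except for the mitochondrial genome.

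ANGPTL4 (ENSG00000167772.7, hg19 chr19:8428173-8439257, plus strand), a secreted inhibitor of lipoprotein lipase and a textbook target of PPAR receptors, had 54.9 and 50.04 CPM with aegs KO and 40.7 and 38.7 CPM with aegl KO, 99.0 and 89.7 CPM with the WT extract, and 23.9 and 20.8 CPM with DPBS. No libraries of different groups overlapped. It rose by 1.03 ± 0.08 with the KO extracts together (adjusted p = 1.04e-05), by 1.23 ± 0.09 under aegs KO (adjusted p = 3.8e-06) and by 0.82 ± 0.09 under aegl KO (adjusted p = 0.00091), the last not passing without aegl KO 1 (adjusted p = 0.0634). The KO extracts minus the WT extract gave −1.05 ± 0.07 (adjusted p = 7.29e-09). Of 11 PPAR targets, a list chosen after these values were seen, 2 were called with the KO extracts together, ANGPTL4 and the peroxisome division gene PEX11A. PEX11A had 16.3 and 16.2 CPM with aegs KO, 17.1 and 18.1 CPM with aegl KO, 10.1 and 9.20 CPM with the WT extract, and 12.3 and 13.4 CPM with DPBS, a joint change of 0.40 ± 0.10 (adjusted p = 0.0481) that failed in 8 of 14 other settings, among them without any one of the 4 KO or 2 DPBS libraries (adjusted p from 0.113 to 0.294).

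Among redox genes SRXN1 (ENSG00000271303.1, chr20:627259-634014, minus strand) rose. Its product, sulfiredoxin, restores over-oxidised peroxiredoxins, and the gene is a target of NRF2, the transcription factor of the antioxidant answer. SRXN1 had 62.2 and 58.5 CPM with aegs KO, 60.5 and 66.1 CPM with aegl KO, 46.0 and 52.2 CPM with the WT extract, and 47.1 and 42.7 CPM with DPBS. It rose by 0.46 ± 0.07 with the KO extracts (adjusted p = 0.00388), while its change under the WT extract was 0.13 ± 0.08 (adjusted p = 0.265), and the KO extracts stood 0.33 ± 0.07 above the WT extract (adjusted p = 0.00199). Without DPBS 2 the joint change was 0.39 and did not pass (adjusted p = 0.131). Of 16 tested targets 1 was higher jointly, and 1 lower, the cystine transporter gene SLC7A11 (−0.21 ± 0.05, adjusted p = 0.028). Under aegs KO alone 1 target was higher and 0 lower, and under aegl KO alone 2 were higher and 0 lower. The mitochondrial glutaredoxin gene GLRX2 had 30.8 CPM in both aegs KO libraries, 27.0 and 26.9 CPM with aegl KO, 24.3 and 23.1 CPM with the WT extract, and 22.6 and 22.5 CPM with DPBS (joint change 0.36 ± 0.08, adjusted p = 0.0227). Without any one of the 4 KO or 2 DPBS libraries neither GLRX2 nor SLC7A11 passed (adjusted p from 0.0846 to 0.305 and from 0.0824 to 0.267).

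HSPA8 (ENSG00000109971.9, chr11:122928197-122933938, minus strand), the constitutive cytosolic chaperone Hsc70, was an abundant transcript that rose with the KO extracts and fell with the WT extract. It had 3259 and 3267 CPM with aegs KO and 3240 and 3273 CPM with aegl KO, 2459 and 2466 CPM with the WT extract, and 2787 and 2851 CPM with DPBS. The KO libraries spanned a narrow range above both other groups. The rise of 0.21 ± 0.03 with the KO extracts (adjusted p = 0.00474) passed in all 14 other settings, the WT extract lowered the gene by 0.20 ± 0.04 (change −0.20, adjusted p = 0.00118), and the KO extracts stood 0.40 ± 0.03 above the WT extract (adjusted p = 1.75e-07). Of 10 tested heat shock genes 2 rose with the KO extracts, HSPA8 and CHORDC1, an HSP90 cochaperone gene (0.22 ± 0.05, adjusted p = 0.0377), and 0 fell. CHORDC1 did not pass without any one of the KO or DPBS libraries (adjusted p from 0.0726 to 0.362). In all, 6 heat shock genes passed without WT 1 or WT 2. 

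The promoters of genes called higher under each KO extract are shown where they hold a motif of a pathway named above. Of the 9 such genes, 7 had an entry in the RefSeq promoter table (GRCh38.p14), of which the 250 bases before the start were searched on both strands for a heat shock element (3 units of GAA and TTC in turn, 2 bases apart), a cyclic AMP response element (TGACGTCA), an AP-1 site (TGANTCA) and an antioxidant response element (TGACNNNGC). HSPA8 held 2 heat shock elements, the motif of heat shock factors, 230 and 55 bases before the start, and KCNF1 held 1 cyclic AMP response element, the motif of CREB, 19 bases before it. The windows are chr11:123062137-123062386 on the minus strand and chr2:10911684-10911933 on the plus strand, 5′ to 3′, with the matches in capitals.
HSPA8: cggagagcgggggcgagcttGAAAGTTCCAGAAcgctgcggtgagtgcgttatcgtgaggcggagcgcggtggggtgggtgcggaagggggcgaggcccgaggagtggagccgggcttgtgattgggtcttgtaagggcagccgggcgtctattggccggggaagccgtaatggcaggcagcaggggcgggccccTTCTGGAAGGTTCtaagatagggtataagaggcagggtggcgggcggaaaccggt
KCNF1: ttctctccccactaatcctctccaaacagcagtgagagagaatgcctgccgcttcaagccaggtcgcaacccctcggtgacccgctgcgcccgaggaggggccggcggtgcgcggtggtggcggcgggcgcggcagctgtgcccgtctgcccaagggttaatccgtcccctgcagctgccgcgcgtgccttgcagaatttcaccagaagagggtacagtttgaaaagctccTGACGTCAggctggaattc
Of 35116 promoters in the table, 0.441% held the heat shock element, 1.65% the cyclic AMP response element, 6.57% the AP-1 site and 10.9% the antioxidant response element. AEN, ANGPTL4, RPL38, SRXN1 and TOMM7 held none of the 4 in this window. A match is a description of the letters and not a bound site.

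TNFRSF12A, PHLDA2, AEN and KCNF1 were higher with the KO extracts than with DPBS, and higher again with the WT extract. TNFRSF12A (ENSG00000006327.9, chr16:3068446-3072384, plus strand), the receptor of the cytokine TWEAK, had 90.9 and 80.7 CPM with aegs KO, 98.8 and 103 CPM with aegl KO, 294 and 299 CPM with the WT extract, and 71.0 and 61.8 CPM with DPBS. It rose by 0.48 ± 0.06 with the KO extracts together (adjusted p = 0.00133), a call that held in all 14 other settings. The changes were 0.37 ± 0.07 under aegs KO and 0.60 ± 0.07 under aegl KO, and 2.16 ± 0.07 under the WT extract. PHLDA2, an imprinted gene that restrains growth, had 33.5 and 32.9 CPM with aegs KO, 39.8 and 35.6 CPM with aegl KO, 73.9 and 74.4 CPM with the WT extract, and 26.3 and 25.4 CPM with DPBS (joint change 0.45 ± 0.07, adjusted p = 0.00325; 0.43 and adjusted p = 0.0907 without DPBS 2). AEN, a nuclease gene induced by p53, changed by 0.37 ± 0.06 jointly (adjusted p = 0.00475; 0.171 without DPBS 2) and by 1.27 ± 0.07 under the WT extract. KCNF1 (ENSG00000162975.3, chr2:11052063-11054350, plus strand), which encodes a modulatory potassium channel subunit, had 15.9 and 17.0 CPM with aegs KO, 17.5 and 15.3 CPM with aegl KO, 26.9 and 30.5 CPM with the WT extract, and 10.8 and 11.9 CPM with DPBS. Its joint change was 0.54 ± 0.10 (adjusted p = 0.0117), which did not pass without aegl KO 1, DPBS 1 or DPBS 2 (adjusted p from 0.0668 to 0.131). Its call under either extract alone failed in 7 of 14 other settings.

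Several genes of the ERK and growth factor routes passed under aegl KO and not under aegs KO. FOSL1 (ENSG00000175592.4, chr11:65659520-65668044, minus strand), an AP-1 subunit and a slow ERK target, had 36.7 and 35.4 CPM with aegs KO, 46.5 and 39.8 CPM with aegl KO, 324 and 294 CPM with the WT extract, and 30.3 and 29.0 CPM with DPBS. Its change was 0.28 ± 0.08 under aegs KO (adjusted p = 0.123) and 0.54 ± 0.08 under aegl KO (adjusted p = 0.00485), the second not passing without DPBS 2 (0.51, adjusted p = 0.0814) or aegl KO 1 (0.42, adjusted p = 0.176). The EGF receptor ligand gene EREG had 42.8 and 34.9 CPM with aegs KO, 53.5 and 40.8 CPM with aegl KO, 285 and 350 CPM with the WT extract, and 32.1 and 29.8 CPM with DPBS, so the KO groups overlapped each other and not DPBS. Its changes were 0.32 ± 0.12 under aegs KO (adjusted p = 0.296) and 0.61 ± 0.12 under aegl KO (adjusted p = 0.0288). The second did not pass without DPBS 1 (adjusted p = 0.0825), DPBS 2 (adjusted p = 0.316) or aegl KO 1 (adjusted p = 0.455). Also higher under aegl KO were the forkhead factor gene FOXQ1 (1.01 ± 0.19), the hyaluronan synthase gene HAS3 (0.79 ± 0.16), the transporter gene SLC45A3 (0.65 ± 0.12), the cell cycle inhibitor CDKN1A (0.60 ± 0.11), the TGF-beta target ID1 (0.55 ± 0.08), the Notch ligand JAG1 (0.52 ± 0.09), PHLDA1 (0.51 ± 0.10) and HLA-C (0.50 ± 0.06), with adjusted p from 0.00201 to 0.0288 in edgeR's test. Under aegs KO the same genes changed by 0.82, 0.28, 0.42, 0.42, 0.34, 0.26, 0.24 and 0.18 in that order, none of them passing. All of these aegl KO calls were lost without aegl KO 1, where 0 genes passed, and the direct difference between the KO extracts passed for none of them.

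Genes of RNA processing, the ribosome and mitochondria were among the named increases under aegs KO. DUSP16, a phosphatase of JNK and p38, had 29.0 and 27.6 CPM with aegs KO, 23.7 and 23.8 CPM with aegl KO, 46.3 and 46.1 CPM with the WT extract and 20.9 CPM in both DPBS libraries, and changed by 0.44 ± 0.08 under aegs KO (adjusted p = 0.0222) and 0.19 ± 0.08 under aegl KO (adjusted p = 0.379). Also higher were LSM6 (0.67 ± 0.15), LSM12 (0.60 ± 0.13) and RPL26 (0.57 ± 0.13), the pseudogene RPS27P3 (0.36 ± 0.08) and the ATP synthase inhibitor ATP5IF1 (0.36 ± 0.08). RGPD6 (2.47 ± 0.57, with 2.06 and 1.03 CPM with aegs KO, against 0.209 and 0.349 CPM with DPBS) has near-identical copies, so its counts are uncertain, as are those of LSM12 and RPS27P3. None of these 7 calls passed without aegs KO 1, aegs KO 2 or DPBS 2 (adjusted p from 0.192 to 0.618 without DPBS 2). Called under both extracts were RPL38, with 332 and 346 CPM with aegs KO and 312 and 358 CPM with aegl KO, against 274 and 242 CPM with DPBS, and TOMM7, of the mitochondrial import pore, with a joint change of 0.39 ± 0.07 (adjusted p = 0.00514). Neither passed jointly without DPBS 2 (adjusted p = 0.169 for RPL38 and 0.22 for TOMM7). Of 79 cytosolic ribosomal protein genes, grouped after their values were seen, 68 were called higher and 0 lower under the WT extract (median 0.31). With the KO extracts together, against the same DPBS libraries, 78 had a log2 change above 0, and 8 were called higher and 0 lower. Their median was 0.10, against −0.0023 over all genes. The median was 0.06 with a trend on gene length removed and 0.07 without DPBS 2, where 0 were called. In place of 8, the number called was 1 without aegl KO 2 or aegs KO 1, 3 without aegs KO 2, 4 without aegl KO 1, and 26 and 25 without WT 1 and WT 2.

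The difference between the KO extracts was tested directly, without DPBS. Of 16711 genes 2 were called (0.012%), with 555 at an unadjusted p under 0.05. Neither is a protein-coding gene. RN7SL5P, a pseudogene of the signal recognition particle RNA, had 2.57 and 3.01 CPM with aegs KO and 0.0229 and 0 CPM with aegl KO (adjusted p = 0.000312), and LSM12P1 had 6.74 and 6.76 CPM with aegs KO and 11.6 and 18.4 CPM with aegl KO (−1.14 ± 0.17, adjusted p = 0.0458). LSM12P1 did not pass without DPBS 1, DPBS 2, aegl KO 2, aegs KO 1 or aegs KO 2 (adjusted p from 0.0989 to 0.507). The count of 2 became 1 without DPBS 1, DPBS 2 or aegl KO 2, 3 without aegs KO 1, and 5 without WT 1 or WT 2. RN7SL5P had 208 counts with aegs KO and 1 count with aegl KO, a ratio of 219.9 (95% interval of counting error, 39.0 to 8727). RN7SL5P and LSM12P1 share reads with near-identical copies and their counts are uncertain. Next in order of p, and not passing, were HLA-C (−0.31 ± 0.06, adjusted p = 0.742), ANGPTL4 (0.40 ± 0.08, adjusted p = 0.742) and CCDC117 (0.34 ± 0.08, adjusted p = 0.977). ANGPTL4 passed without the low-count filter (adjusted p = 0.00308), and HLA-C there and in 4 more settings, among them DESeq2 (adjusted p = 0.0283).

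A missed threshold does not show that the KO extracts act alike, so the 95% intervals of the difference were read. For genes over 5 CPM on average the interval of aegs KO minus aegl KO lay within a log2 of 1 on either side of 0 for 10512 of 10531 genes (99.8%), and within 0.5 for 9788 (92.9%). Over all tested genes, of any level, it lay within 1 for 12268 of 16711 (73.4%). For the 200 genes of the ALT list, also of any level, it lay within 1 for 171 (85.5%), and for the 200 of the Aeg-S/L list for 189 (94.5%). For single genes of the ERK route the interval did not reach 0: it ran from −0.58 to −0.17 for DUSP6, from −0.65 to −0.16 for SPRY4, from −0.43 to −0.09 for FOSL1 and from −0.48 to −0.06 for PHLDA1. These intervals are not adjusted for the number of genes, and each of these genes had an adjusted p of 1. The genes were singled out, and intervals of the other ERK feedback genes are not given. Over the 13 ERK feedback genes the median difference was −0.13. Of all 16711 genes, 555 had an unadjusted p under 0.05 in edgeR's test of this difference.

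The other gene lists had few calls with the KO extracts together. In 14 ER chaperone, 9 metallothionein and zinc, 14 interferon-stimulated, 11 pattern recognition, 16 annexin and membrane repair, 14 lysosome and autophagy, 13 ribosome biogenesis, 11 YAP and SRF, and 9 glucocorticoid and cAMP genes 0 passed (edgeR, adjusted p under 0.05), against 3, 7, 6, 3, 10, 5, 6, 7 and 9 under the WT extract in that order. Without WT 1 or WT 2 some of these lists had joint calls. Higher were 4 and 3 annexin and membrane repair genes, 2 and 1 metallothionein and zinc genes, and, without either, 2 lysosome and 2 ribosome biogenesis genes. Without either, 2 glucocorticoid and cAMP genes and 1 ribosome biogenesis gene were lower. Of the ER chaperone genes 1 was higher without WT 1, WT 2 or DPBS 1. Of 14 integrated stress response genes SLC7A11 was lower, of 12 hypoxia genes VEGFA was lower, of 15 p53 targets CDKN1A was higher (0.51 ± 0.10, adjusted p = 0.0132) and of 11 TGF-beta targets ID1 was higher (0.45 ± 0.07, adjusted p = 0.00425). CDKN1A did not pass without aegl KO 1 or DPBS 2 (adjusted p from 0.0774 to 0.308), and ID1 did not without DPBS 2 (adjusted p = 0.101). Of 16 cholesterol synthesis genes HMGCS1, an early enzyme of that pathway, was higher (0.24 ± 0.05, adjusted p = 0.0218; 0.0634 to 0.496 without any one KO or DPBS library), whereas 1 was higher and 7 were lower under the WT extract.

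The mucin genes MUC5AC, MUC16, MUC5B and MUC1 fell with the KO extracts. MUC5AC (ENSG00000215182.6, chr11:1151580-1222364, plus strand), a gel-forming airway mucin, had 156 and 147 CPM with aegs KO, 158 and 161 CPM with aegl KO, 913 and 405 CPM with the WT extract, and 394 and 366 CPM with DPBS. It fell by 1.29 on the log2 scale with the KO extracts together (standard error 0.18, adjusted p = 0.0017), and this call held in all 14 other settings, whereas under the WT extract it changed by 0.79 (adjusted p = 0.00889). The 4 KO libraries were close to each other and lay below both DPBS libraries, while the WT libraries differed from each other more than 2-fold. MUC16 had 15.3 and 11.97 CPM with aegs KO, 10.7 and 16.2 CPM with aegl KO, 60.8 and 20.7 CPM with the WT extract, and 48.2 and 36.1 CPM with DPBS (joint change −1.64 ± 0.27, adjusted p = 0.00425). MUC5B had 29.4 and 31.8 CPM with aegs KO, 28.4 and 32.4 CPM with aegl KO, 104 and 51.4 CPM with the WT extract, and 69.0 and 57.9 CPM with DPBS (joint change −1.06 ± 0.17, adjusted p = 0.00425). Without DPBS 1 neither joint call passed (MUC16 −1.42, adjusted p = 0.0598; MUC5B −0.92, adjusted p = 0.0614). MUC1 changed by −0.39 ± 0.09 (adjusted p = 0.0326), and did not pass without any one of the 4 KO libraries or without DPBS 2 (adjusted p from 0.0848 to 0.67). The other 8 of the 12 tested mucus and goblet genes did not pass, and the list's median was 0.07 under the KO extracts.

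MUC5AC, MUC16 and MUC5B have long transcripts, and so did most genes that fell. Gene length here is the number of exon bases given with the deposited counts (median 4074), not the span on the chromosome. Of the 158 genes lower under aegs KO, 138 (87.3%) lay in the longest of 5 equal classes of gene length, and of the 100 lower under aegl KO 72 (72%) did. Jointly it was 202 genes (69.2% of those lower), and under the WT extract 1053 of 2851 (36.9%). Examples were the giant genes SYNE2, of the nuclear envelope (joint change −0.97 ± 0.14), UBR4, a ubiquitin ligase (−0.86 ± 0.12), the cadherin FAT1 (−0.80 ± 0.11), PRKDC, the DNA-dependent protein kinase (−0.59 ± 0.07), and the cytoskeletal linker DST (−0.58 ± 0.07), with adjusted p from 0.000688 to 0.00224 in edgeR's test. These 5 calls held in all 14 other settings, removal of a length trend included. UBR4 had 99.0 and 87.9 CPM with aegs KO, 102 and 126 CPM with aegl KO, 204 and 135 CPM with the WT extract, and 201 and 173 CPM with DPBS.

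Gene length and the change were related over all genes as well. Over 10531 genes above 5 CPM, Spearman's rho between length and log2 change was −0.40 under aegs KO and −0.35 under aegl KO, with the same DPBS libraries, and −0.08 between the KO extracts; genes are not independent replicates and no test was made. The libraries showed where the trend lay. In each library the median deviation of log2 CPM from the average library was taken per length class, over genes above 5 CPM. The longest minus the shortest class was −0.014 and −0.019 with aegs KO, 0.032 and −0.0034 with aegl KO, −0.197 and −0.124 with the WT extract, and 0.116 and 0.182 with DPBS. The DPBS libraries stood highest and the KO libraries lay between them and the WT extract. With a smooth trend on length removed from each library, 37 genes were called under aegs KO (6 higher, 31 lower), 74 under aegl KO (26 and 48) and 207 jointly (64 and 143). MUC5AC, GRB7, CENPF, MKI67 and CYP1A1 kept their lower calls and ANGPTL4 and HSPA8 their higher calls in that fit.

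**Figure D3:**
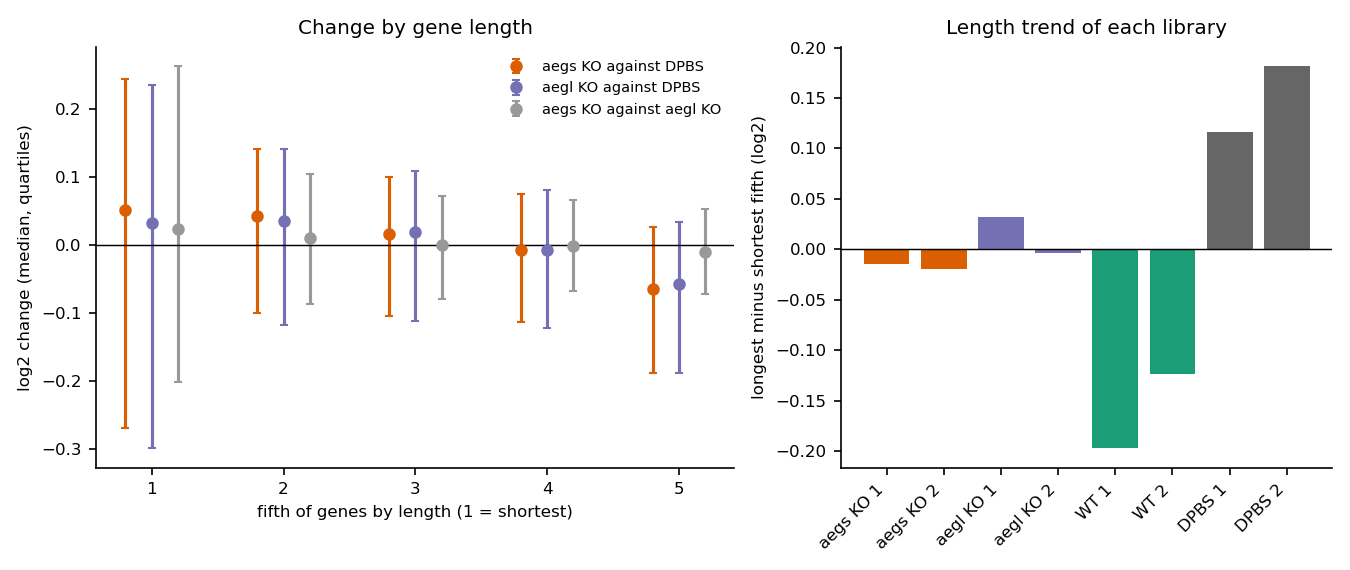
Left, the median (point) and quartiles (line) of the log2 change by class of gene length in 5 equal classes, shortest to longest, for aegs KO against DPBS, aegl KO against DPBS and aegs KO against aegl KO. Right, the median deviation of log2 CPM from the average library, longest minus shortest class, in each of the 8 libraries, over genes above 5 CPM. It is near 0 in the 4 KO libraries (−0.019 to 0.032), below 0 with the WT extract and above 0 with DPBS.

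CENPF, MKI67 and GRB7 also fell, and passed with the length trend removed as well. CENPF (ENSG00000117724.8, chr1:214776538-214837931, plus strand), a kinetochore protein, had 160 and 158 CPM with aegs KO, 151 and 161 CPM with aegl KO, 128 and 114 CPM with the WT extract, and 226 and 239 CPM with DPBS (joint change −0.56 ± 0.05, adjusted p = 8.99e-05). MKI67, the Ki-67 antigen, had 303 and 294 CPM with aegs KO, 308 and 330 CPM with aegl KO, 278 and 246 CPM with the WT extract, and 466 and 440 CPM with DPBS (−0.55 ± 0.05, adjusted p = 8.99e-05). Both calls held in all 14 other settings. Of 16 tested cell cycle genes MKI67 and TOP2A (−0.20 ± 0.05, adjusted p = 0.0386) were lower, 0 were higher and the median was 0.03. TOP2A did not pass without any one of the KO or DPBS libraries (adjusted p from 0.15 to 0.408). GRB7 (ENSG00000141738.9, chr17:37894180-37903544, plus strand), an adaptor of receptor tyrosine kinases, had 20.4 and 18.3 CPM with aegs KO, 18.0 and 16.2 CPM with aegl KO, 18.2 and 22.8 CPM with the WT extract, and 31.4 and 31.3 CPM with DPBS (−0.79 ± 0.10, adjusted p = 0.000713, in all 14 other settings). The KO and WT libraries overlapped and all lay below DPBS.

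CCNG2, a cyclin that holds back the cell cycle, had 16.2 and 17.8 CPM with aegs KO, 11.7 and 13.2 CPM with aegl KO, 13.3 and 19.4 CPM with the WT extract, and 25.6 and 28.1 CPM with DPBS (−0.88 ± 0.12, adjusted p = 0.00141). KLHL24, a ubiquitin ligase adaptor, had 9.79 and 8.502 CPM with aegs KO, 7.84 and 8.18 CPM with aegl KO, 12.6 and 17.1 CPM with the WT extract, and 16.6 and 15.3 CPM with DPBS (−0.90 ± 0.12, adjusted p = 0.00141). LFNG, which modifies Notch receptors, changed by −0.74 ± 0.11 (adjusted p = 0.00303), the death ligand gene TNFSF10 by −0.63 ± 0.10 (adjusted p = 0.00425) and the pro-apoptotic gene BMF by −0.77 ± 0.16 (adjusted p = 0.0163). TNFSF10 did not pass without DPBS 2 (adjusted p = 0.0851), nor BMF without aegl KO 1, aegl KO 2, aegs KO 1, DPBS 1 or DPBS 2 (adjusted p from 0.0628 to 0.236). CYP1A1 (ENSG00000140465.9, chr15:75011883-75017951, minus strand), the main target of the aryl hydrocarbon receptor, had 246 and 315 CPM with aegs KO, 285 and 275 CPM with aegl KO, 414 and 416 CPM with the WT extract, and 364 and 387 CPM with DPBS. Its joint change of −0.42 ± 0.07 (adjusted p = 0.00467) did not pass without DPBS 2 (−0.38, adjusted p = 0.129), and the other 11 of 12 tested targets of that receptor did not pass. VEGFA, an angiogenic factor, had 83.5 and 85.7 CPM with aegs KO, 86.9 and 82.3 CPM with aegl KO, 145 and 144 CPM with the WT extract, and 98.5 and 117 CPM with DPBS. Its joint change of −0.35 ± 0.06 (adjusted p = 0.00859) did not pass without DPBS 2 (−0.22, adjusted p = 0.382), without aegl KO 2 (adjusted p = 0.0551) or with the length trend removed (adjusted p = 0.118).

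Transcripts of the mitochondrial genome and the nuclear RNAs NEAT1 and MALAT1 were lower, with calls that depended on single libraries, DPBS 2 and both aegl KO libraries among them. Of 13 mitochondrial genes 10 were lower with the KO extracts together (median −0.86). MT-CO1 had 2362 and 3037 CPM with aegs KO, 2683 and 2388 CPM with aegl KO, 2072 and 3104 CPM with the WT extract, and 3334 and 6544 CPM with DPBS. The 10 calls became 0 without DPBS 2 (median −0.23), 12 without DPBS 1 (median −1.32), 0 without aegl KO 1, 0 without aegl KO 2 and 4 without aegs KO 1. NEAT1 had 35.6 and 36.9 CPM with aegs KO, 30.9 and 28.3 CPM with aegl KO, 182 and 99.5 CPM with the WT extract, and 45.2 and 93.2 CPM with DPBS. Its change under aegl KO was −1.22 ± 0.26 (adjusted p = 0.0407), and −0.61 without DPBS 2 (adjusted p = 0.618); it did not pass without aegl KO 1 (adjusted p = 0.317) or aegl KO 2 (adjusted p = 0.353) either. Other large decreases by the naming rule under aegl KO included RN7SL5P, with 1 count with aegl KO against 118 with DPBS. Its ratio was 0.00946 (95% interval of counting error, 0.000238 to 0.0538), with adjusted p = 0.00145, and it did not pass without aegl KO 1 (adjusted p = 0.0634). Also named were PILRB (−1.64 ± 0.36), PABPC1L (−1.32 ± 0.26), MALAT1 (−1.04 ± 0.22) and KIF12 (−1.02 ± 0.21). These 4 each had more than 1.5 times the CPM in DPBS 2 as in DPBS 1. Without DPBS 2 none of these 4 passed (adjusted p from 0.426 to 0.717), nor did they without either aegl KO library. Under aegs KO they were SERF1A, with 9.03 CPM in DPBS 1 and 0.349 CPM in DPBS 2, LSM12P1 (−1.25 ± 0.17), NPIPB5 (−1.10 ± 0.14) and CREBRF (−0.98 ± 0.18), and SERF1A, LSM12P1 and NPIPB5 have near-identical copies. Without DPBS 1 SERF1A did not pass (−1.07, adjusted p = 0.807), nor did it without any one KO library, LSM12P1 did not pass without aegs KO 2 (adjusted p = 0.0576), and CREBRF did not pass without any one of the aegs KO or DPBS libraries.

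Other genes also moved opposite ways with the KO and the WT extract, though more were called the same way. Of the 75 genes higher with the KO extracts, 61 were also higher with the WT extract. Of the lower genes 158 were also lower with it. The WT extract had no call for 12 of the higher and 106 of the lower genes. How much the shared DPBS libraries add to these same-way calls was not tested. Against the shared DPBS libraries 30 genes were called in opposite directions, 2 of them higher with the KO extracts (HSPA8 and PEX11A) and 28 lower. SLC38A2, an amino acid transporter gene, had 218 and 216 CPM with aegs KO, 196 and 190 CPM with aegl KO, 739 and 848 CPM with the WT extract, and 266 and 267 CPM with DPBS, a joint change of −0.38 ± 0.05 with the KO extracts (adjusted p = 0.00141) and 1.57 ± 0.06 with the WT extract. ZBTB10, a zinc finger gene, changed by −0.41 ± 0.09 and 2.31 ± 0.10, the insulin receptor substrate IRS2 by −0.26 ± 0.05 and 0.76 ± 0.05, the epithelial transcription factor ELF3 by −0.20 ± 0.05 and 1.04 ± 0.06, and NFAT5, the factor of osmotic stress, by −0.35 ± 0.08 and 0.71 ± 0.09. ELF3 and NFAT5 did not pass with the KO extracts without any one of the 4 KO or 2 DPBS libraries (adjusted p from 0.0937 to 0.446 and from 0.0717 to 0.272). Of these 6 libraries, IRS2 passed only without aegs KO 2 (adjusted p from 0.0504 to 0.22 without the others), and ZBTB10 only without aegl KO 1 (adjusted p from 0.0575 to 0.236 without the others). Of the 75 genes higher with the KO extracts than with DPBS, 10 were called above and 46 below the WT extract, and of the lower genes 66 and 116.

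The 367 genes were then looked up in NCI-H1437 experiments with other DPBS libraries. Of the 75 higher genes, 44 were higher and 3 lower under Aeg-S and Aeg-L together (15.4% and 15.8% of all genes there), and 68 (90.7%) had a change above 0, against 51.2% of all genes. Under ALT in the experiment with 3 libraries a group, 18 were higher and 0 lower (3.59% and 1.13% of all genes), and 54 (72%) lay above 0, against 47.2% of all. Of the lower genes 291 were tested in both: 56 were higher and 92 lower under Aeg-S and Aeg-L, and 10 higher and 8 lower under ALT. Of these lower genes 166 (57%) had a change above 0 under ALT, and 116 (39.9%) under Aeg-S and Aeg-L. ANGPTL4 rose by 1.61 under the proteins (adjusted p = 9.35e-11) and 1.73 under ALT (adjusted p = 0.0044), and TNFRSF12A by 1.77 and 3.09. SRXN1 fell by 0.32 under the proteins (adjusted p = 0.0195) and HSPA8 by 0.20 (adjusted p = 0.00206), while under ALT they changed by 0.37 and 0.44 without passing. MUC5AC rose by 0.84 (adjusted p = 0.00805) and 1.47 (adjusted p = 0.0249).

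In NCI-H292, a second epithelial lung cancer line treated with the same 4 agents, the 2 libraries of a KO group differed more from each other. Chi-square per degree of freedom between them was 71.4 for aegs KO and 57.3 for aegl KO, against 4.67 and 5.06 in NCI-H1437. For the DPBS pair it was 27.9 in NCI-H292 and 16.3 in NCI-H1437, and for the WT pair 4.22 and 14.3. Numbers of calls therefore do not compare the lines, and those that follow are for NCI-H292. Of 16613 genes, edgeR called 0 between aegs KO and DPBS (0% of genes; 308 at an unadjusted p under 0.05, 1 by DESeq2), 20 between aegl KO and DPBS (0.12%; 16 higher, 0.0963%, and 4 lower, 0.0241%) and 12 between aegs KO and aegl KO (0.0722%, 1 higher and 11 lower). In that line the aegl KO count of 20 became 4 without DPBS 1, 8 without DPBS 2, WT 1, WT 2 or aegl KO 1, 103 without aegl KO 2, 176 without aegs KO 1 and 168 without aegs KO 2. The count of 12 became 6 without aegs KO 1, 7 without WT 1, WT 2 or aegl KO 1, 77 without aegl KO 2 and 879 without aegs KO 2. Of the 75 genes higher in NCI-H1437, 74 were tested there and 1 was higher with the KO extracts together, a comparison that called 2 genes in all (0.012%), and of the 280 tested lower genes 0 were lower. Changes above 0 in that comparison were found for 52.7% of the 74 and 57.5% of the 280, against 49.3% of all genes. Of the 74, 37.8% lay above 0 under aegs KO and 54.1% under aegl KO (49.5% and 49.3% of all genes). Of the 20 genes called under aegl KO 6 were in the list of ERK feedback genes. DUSP6, the ERK phosphatase, had 7.63 and 6.96 CPM with aegs KO, 35.0 and 34.8 CPM with aegl KO, 219 and 214 CPM with the WT extract, and 5.12 and 6.82 CPM with DPBS. It rose by 2.55 ± 0.15 under aegl KO (adjusted p = 9.29e-05) and differed between aegs KO and aegl KO by −2.26 (adjusted p = 0.000248). Of 13 ERK feedback genes 6 were higher under aegl KO (median 1.02) and 0 under aegs KO (median 0.09).

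The same genes were small in NCI-H1437. There DUSP6 had 16.7 and 15.2 CPM with aegs KO, 21.8 and 19.5 CPM with aegl KO, 61.2 and 63.7 CPM with the WT extract, and 16.04 and 15.6 CPM with DPBS, a change of 0.39 ± 0.10 under aegl KO (adjusted p = 0.0685). In a joint fit of both lines, with 18604 genes and each effect against its own DPBS, the joint KO effect differed for 1 gene (0.00538%), the aegl KO effect for 12 (0.0645%), the aegs KO effect for 0 (0%; 1040 at an unadjusted p under 0.05, 7 by DESeq2) and the aegs KO minus aegl KO difference for 6 (0.0323%). The 12 became 5 to 8 without any one DPBS library, without any one KO library of NCI-H1437 or without aegl KO 1 of NCI-H292, and 365, 350 and 345 without aegl KO 2, aegs KO 1 and aegs KO 2 of NCI-H292. The 6 became 3 without aegl KO 2 or aegs KO 1 of NCI-H1437, 310 without aegl KO 2 of NCI-H292 and 824 without aegs KO 2 of NCI-H292. For DUSP6 the aegl KO effect was smaller in NCI-H1437 by 2.13 (difference −2.13, adjusted p = 1.75e-05). The NCI-H292 library aegl KO 1 stood apart, with 0.554% of counts from the mitochondrial genome, against 2.24 to 2.79% in the other KO and DPBS libraries of that line. Without it the DUSP6 difference was −2.14 (adjusted p = 9e-05) and that of SPRY4 −2.15 (adjusted p = 0.00218), while PHLDA1 no longer passed (−1.03, adjusted p = 0.0564). The line and the experiment cannot be told apart, since each line was treated in an experiment of its own.

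**Figure D4:**
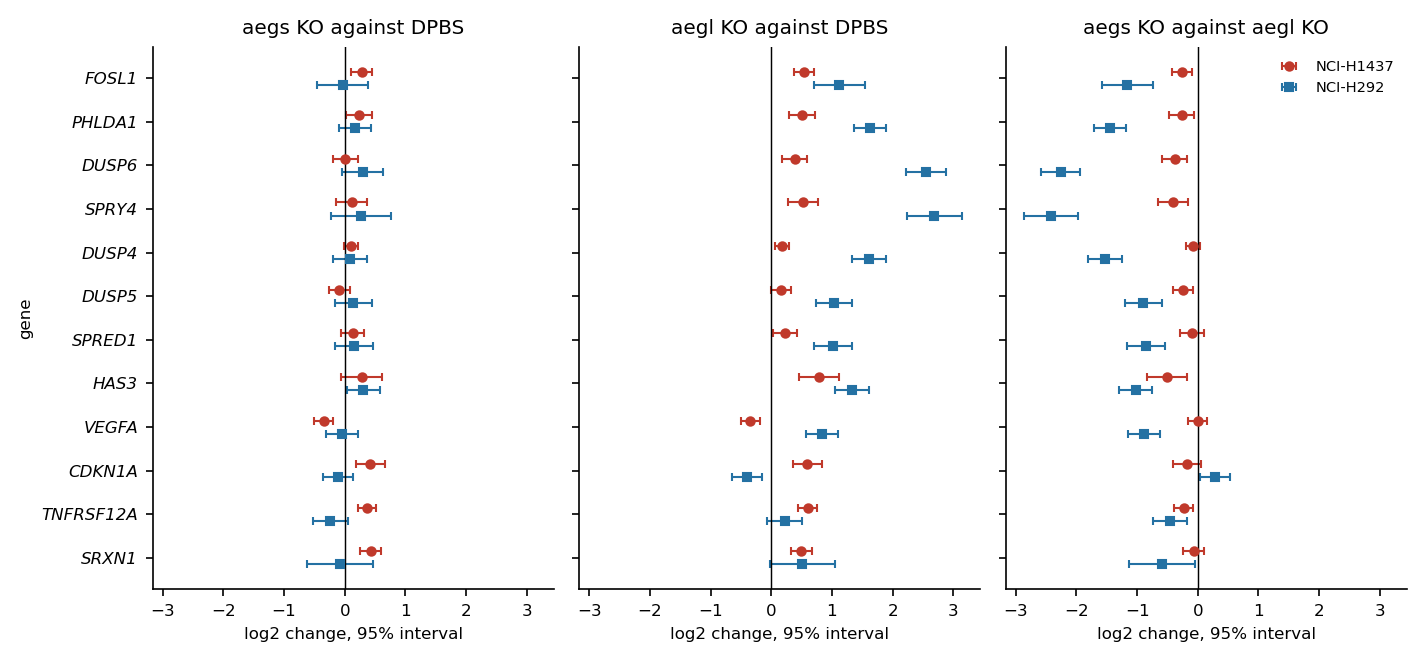
Log2 change with its 95% interval for 12 genes in NCI-H1437 (red circles) and NCI-H292 (blue squares), for aegs KO against DPBS, aegl KO against DPBS and aegs KO against aegl KO. Under aegl KO the ERK feedback genes DUSP6 and SPRY4 stand at 2.55 and 2.69 in NCI-H292 and at 0.39 and 0.52 in NCI-H1437, while TNFRSF12A and SRXN1 have intervals above 0 in NCI-H1437 under both extracts.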

How the data were processed

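Gene counts of 8 libraries of 1 experiment in NCI-H1437 were used, with 3 more tables of human cells for comparison, 4 of 13 deposited tables in all (33 count columns, 0 left unused). The labels name a TIANGEN RNAprep kit for RNA and the NEBNext Ultra kit for libraries. Per the submitters' processing notes, the authors aligned reads to hg19 with HISAT2 2.2.1, handled them with SAMtools and made the deposited counts per gene with featureCounts 2.0.2; DESeq2 1.36.0 and R 4.2.2 are also named there. The strand setting of the counting was not found in the labels or headers. Of 57820 gene IDs 51996 matched a symbol.

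The counts were fitted as deposited with edgeR 4.0.16 in R 4.3.3: filterByExpr over the 4 groups, TMM scaling, 1 coefficient per group, quasi-likelihood F test, Benjamini-Hochberg adjustment over all genes of a comparison, calls at an adjusted p under 0.05. The standard error of a log2 change is its size over the square root of F. Prior count for log2 CPM was 1. Tests were checked on simulated counts with the same spread in every group and no response to the WT extract. That check does not cover the unequal spread between the groups of these data. Pairs of libraries of a group differed beyond counting noise (chi-square per degree of freedom at least 4.22), so none was a copy. In NCI-H1437 the DPBS pair, used in every comparison with DPBS, had the highest value of the 4 groups (16.3).

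Named genes are list members, and for each KO extract the 15 largest increases and 10 largest decreases among called genes whose replicates do not overlap and whose higher group has 1 CPM or more; between the KO extracts, the 5 smallest p. The members, the 31 gene lists (404 entries, 401 with an ID, 360 tested; CCL5, BOP1 and PECAM1 without an ID), the naming rule and the alternatives were chosen with earlier results of these data known. Of the lists, the PPAR targets, and also the ribosomal protein genes, were chosen after their values were seen, as were the other genes named outside the rule. Response lists hold up to 200 genes that rose by a log2 of 1 or more in other NCI-H1437 experiments. Alternatives were DESeq2 1.42.0, no low-count filter, DESeq2 size factors, the replicate number as a block, 6 libraries without the WT extract, each library left out, and a lowess trend on gene length (span 0.3) removed. A group left with 1 library was taken to vary like the others.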

Additional observations from a re-analysis of the deposited data

Results flagged for a closer look

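The values here were picked out because an effect of the KO extracts differed between NCI-H1437 and NCI-H292 in a joint fit, with edgeR's adjusted p for the difference itself; each is a log2 difference, NCI-H1437 minus NCI-H292. With both KO extracts against DPBS 1 of 18604 genes differed, DUSP6 (−1.20, adjusted p = 0.0103). With aegl KO against DPBS, ERK feedback and growth genes had lower log2 changes in NCI-H1437 than in NCI-H292: DUSP6 (−2.13, adjusted p = 1.75e-05), SPRY4 (−2.14, adjusted p = 0.000565), DUSP4 (−1.40, adjusted p = 0.000174), PHLDA1 (−1.08, adjusted p = 0.0155), MYC (−1.47, adjusted p = 0.00139) and VEGFA (−1.15, adjusted p = 0.00139). VEGFA lay below DPBS with aegl KO in NCI-H1437, so its lower change is not a smaller rise.

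Under the same comparison the differences of the kinase gene MAP3K9 (−0.95, adjusted p = 0.0106), the actin regulator MICAL2 (−1.02, adjusted p = 0.047), the phosphate transporter SLC20A1 (−0.72, adjusted p = 0.0384) and RIF1 (−0.72, adjusted p = 0.0438) were below 0. Those of CDKN1A (1.03, adjusted p = 0.0155) and the aldo-keto reductase AKR1C3 (0.79, adjusted p = 0.0384) were above 0. Without each of 12 KO and DPBS libraries of both lines in turn, DUSP6, SPRY4, DUSP4, MYC and VEGFA passed each time, MAP3K9 in 7, CDKN1A and PHLDA1 in 6, MICAL2 in 4, and AKR1C3, SLC20A1 and RIF1 in 3. CDKN1A and AKR1C3 both failed without DPBS 1, DPBS 2 or aegl KO 1 of either line (highest adjusted p = 0.223 and 0.258). CDKN1A had 27.2 and 23.4 CPM with aegl KO, against 17.7 and 15.8 CPM with DPBS, in NCI-H1437, and 422 CPM in both aegl KO libraries, against 560 and 552 CPM with DPBS, in NCI-H292.

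For aegs KO minus aegl KO the differences between lines were 1.87 for DUSP6 (adjusted p = 0.0001), 2.01 for SPRY4 (adjusted p = 0.000782), 1.44 for DUSP4 (adjusted p = 0.000117), 1.17 for PHLDA1 (adjusted p = 0.0113), 1.19 for MYC (adjusted p = 0.0172) and 0.88 for VEGFA (adjusted p = 0.0351). DUSP6, SPRY4 and DUSP4 passed without each of the 12 libraries, PHLDA1 in 10, MYC in 8 and VEGFA in 6. The joint difference of DUSP6 passed in 8. Each line was treated in its own experiment, so line and experiment cannot be told apart.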

How the results depend on the processing

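Single results kept their direction: of 1423 values of 101 single results under other settings, 1091 kept their side of the threshold, 326 no longer passed, 6 newly passed and 0 reversed. Many of these were chosen as called genes whose libraries do not overlap between groups. A reversal was thus unlikely from the start, and its absence is no support for them. A DESeq2 value without an adjusted p would count as keeping its side. The medians of the response lists moved by less than 1 SD between libraries, though those of aegs KO lie near 0 and changed sign, and the 5483 calls of the WT extract and 6050 of the KO against the WT extract moved by less than 1.5 times. The counts of KO calls in NCI-H1437 moved, and the cause was not tested. In the order aegs KO, aegl KO, both KO extracts against DPBS, and aegs KO against aegl KO, they were 181, 128, 367 and 2 as reported. DESeq2 gave 361 (98 higher, 263 lower), 298 (106 and 192), 617 (217 and 400) and 4; no low-count filter gave 426, 488, 712 and 33; and 6 libraries without the WT extract gave 668 (246 and 422), 680 (253 and 427), 1122 (449 and 673) and 5. Removing the length trend gave 37, 74, 207 and 2, and DESeq2 size factors 171, 130, 347 and 2. Leaving out 1 library gave 6 to 636, 0 to 674, 61 to 1097 and 1 to 5, and the 28 genes of the lists, PPAR targets left out, that were called with both KO extracts became 5 to 66.

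In NCI-H292, aegs KO (0 calls), aegl KO (20), both (2) and aegs KO against aegl KO (12) became 1, 280, 24 and 135 with DESeq2, 18, 763, 151 and 654 with no low-count filter, and 0 to 2, 4 to 176, 0 to 22 and 6 to 879 without 1 library. The differences between lines, 0, 12, 1 and 6 in that order, became 7, 290, 129 and 55 with DESeq2, 72, 525, 281 and 255 with no filter, and 0 to 25, 5 to 365, 0 to 418 and 3 to 824 without 1 library.

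Replicate numbers did not pair the libraries: deviations of same-numbered libraries correlated at −0.04 to 0.04 in NCI-H1437 and −0.06 to 0.23 in NCI-H292. With a replicate block the counts were 148, 139, 324 and 3, and 1 for both KO extracts in NCI-H292. With 2 libraries a group, small changes of single genes lie at the limit of what these data resolve.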
